A study of Mus musculus with 14 samples.

Results

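De novo primed enhancers were defined as peaks of H3K4me1 in retinoic acid (RA)-differentiated cells that overlapped, by 1 bp or more, no H3K27ac peak of the same cells and no H3K4me1 or H3K27ac peak of embryonic stem cells (ESCs). This rule left 44172 of the 158989 H3K4me1 peaks called after RA (27.8%). The peak calls of the 4 lists alone chose the regions, so their H3K4me1 gain and their lack of H3K27ac peaks are part of the definition. The CpG methylation (5mC) that these regions already carried in ESCs, the 5mC found there after RA, and the counts and 5mC found there in a second differentiated state were not part of it.

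Nucleosomes next to enhancers carry H3K4me1 both when the enhancer is active and when it is only primed, whereas H3K27ac, deposited by CBP and p300, marks active enhancers and promoters. A region with H3K4me1 but no H3K27ac is therefore commonly called primed. 5mC at CpG sites is low at most active enhancers and high over most of the remaining genome, and enhancers often show intermediate levels. In ChIP followed by bisulfite sequencing (ChIP-BS-seq), 5mC is read only on DNA that came down with the antibody, so each value describes the marked nucleosomes together with whatever unmarked DNA was carried along.

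All cells derived from R1, a male mouse ESC line, at passages 20-23. ESCs were cultured for 2 days without the 2i inhibitors PD0325901 and CHIR99021 in which the line was maintained. RA-differentiated cells received 1 µM retinoic acid for 4 days without LIF. Extraembryonic endoderm (XEN) cells were derived over 9 days with retinoic acid at 0.1 µM together with Activin A at 10 ng/mL, so they differed from RA-differentiated cells in medium, dose and time together, and these cannot be told apart. For ESCs and RA-differentiated cells there was 1 library per mark, and for XEN cells 2 per mark, with no peak list for XEN cells used here. No comparison of ESCs with RA-differentiated cells therefore has a replicate check. The cell states were not checked against marker genes, because the transcript identifiers of the single-cell files could not be paired with gene names here.

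The libraries held 12147115 to 58803653 CpG counts, with the 4 XEN libraries between 12147115 and 31345707. XEN bins were listed only from 4 counts upward, so a region without counts in XEN cells had no such bin. The XEN labels were in doubt. Sample labels and file names assign opposite marks to each XEN library, and over all bins of the genome the libraries labelled H3K4me1 had 1147 and 1508 bins with over 300 counts, at 8.13% and 7.94% 5mC. The H3K27ac libraries of ESCs and RA-differentiated cells had 3496 and 4980 such bins, at 0.635% and 0.787% 5mC, and their H3K4me1 libraries had 16 and 15, at 11.1% and 48.9%. The XEN libraries labelled H3K27ac had 67 and 155, at 65.8% and 65.2% 5mC. XEN libraries are therefore called by their label throughout, and every direction drawn between them rests on that label.

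De novo primed enhancers were short and weak peaks. Their median length was 1253 bp (quartiles 1000 and 1577 bp), and 18228 of them (41.3%) had the shortest length in the list, 1000 bp, against 21.5% of all H3K4me1 peaks after RA. Together they covered 63.0 Mb. The median peak score given by the HOMER peak caller was 12.6, against 21.9 over the whole list. The highest-scoring region was also the widest, chr16:56491321-56502675 (mm9), with a score of 175.3 and a length of 11355 bp. These values describe the peak calls that chose the regions and carry no test.

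The median gap to the next H3K4me1 peak was 4013 bp, against 1982 bp over the list. The rule itself sets a gap to every peak of the other 3 lists. The median gap to the nearest H3K27ac peak after RA was 12713 bp, to the nearest ESC H3K4me1 peak 8478 bp and to the nearest ESC H3K27ac peak 20422 bp. For 48.9% of them the nearest H3K4me1 peak was itself de novo primed, although such regions made up 27.8% of the list. For 34.7% the nearest H3K4me1 peak overlapped H3K27ac, against 51.4% of the list. With a limit of 5 kb between neighbours, 12608 of the regions (28.5%) fell into 5650 runs of 2 or more, and 229 runs held 4 or more.

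Regions just inside and just outside the rule had like values. There were 571 de novo primed enhancers with a gap of at most 100 bp to a peak of another list, and 597 peaks were left out for an overlap of at most 100 bp. Their pooled 5mC in the H3K4me1 libraries was 59.8% and 59.9% in ESCs, and 63.1% and 63.2% after RA.

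The DNA of these regions was already of intermediate methylation in ESCs. Pooled over all 44172 regions, 5mC in the ESC H3K4me1 library was 55.3% (95% Clopper-Pearson interval 55.2 to 55.5; 538941 CpG counts), and in the RA H3K4me1 library it was 58.2% (58.1 to 58.2; 2695917 counts). Intervals cover counting error only, and the reads carry no molecular identifiers. The difference was +2.84 percentage points. In bins with at least 30 counts alone, the values were 46.7% in ESCs and 53.5% after RA. Over all H3K4me1 peaks after RA, 5mC went from 31.5% to 52.8%, a difference of +21.4 points. The 44172 regions thus started 23.9 points above the level of the whole list and ended 5.33 points above it.

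A pair of groups with neighbouring definitions give a scale. De novo active enhancers, the 20451 peaks that overlapped H3K27ac after RA and no ESC peak, had 58.3% in ESCs and 60.2% after RA (+1.92 points). Enhancers that stayed primed, the 18505 peaks that overlapped an ESC H3K4me1 peak and no H3K27ac peak in either state, had 34.2% and 50.1% (+15.9 points). ESC 5mC was thus lower in the group that already had H3K4me1 peaks there than in either group without one. With 1 library per state, these differences between groups of regions have no test over samples.

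The ESC value rests on few counts per region. The median region had 7 counts in the ESC H3K4me1 library and 47 in the RA H3K4me1 library, and 4267 regions had none in ESCs. At least 30 counts were reached by 4953 regions in ESCs and by 31872 after RA. The density of CpG counts per kb, scaled to the library total, was 6.23-fold higher after RA, which the rule selects for. Among the regions with at least 30 counts, the median 5mC was 56.5% in ESCs (quartiles 46.9% and 64.5%) and 59.6% after RA (49.5% and 68.7%). Regions of low 5mC were few, since 78 of 4953 regions (1.57%) were under 20% in ESCs and 196 of 31872 (0.615%) after RA. Over all H3K4me1 peaks after RA these shares were 17.2% and 2.85%. Highly methylated ones were somewhat more frequent after RA, where 1593 regions (4.998%) were over 80%, against 94 (1.90%) in ESCs, though the 2 shares are over different sets of regions. Over the whole list 4.28% were over 80% after RA and 0.414% in ESCs.

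The H3K27ac libraries read the same regions without an H3K27ac peak. They gave 60.9% (60.8 to 61.1; 417497 counts) in ESCs and 57.9% (57.8 to 58.0; 596538 counts) after RA, a difference of -3.03 points. The direction was thus opposite to that in the H3K4me1 libraries. The H3K4me1 library minus the H3K27ac library gave -5.59 points in ESCs and 0.274 points after RA. The sign after RA turned with the bins used, since in bins with at least 4 counts the H3K4me1 library was at 58.0% and the H3K27ac library at 59.1%. Over the whole list the H3K4me1 library was 18.4 points above the H3K27ac library after RA.

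**Figure D1:**
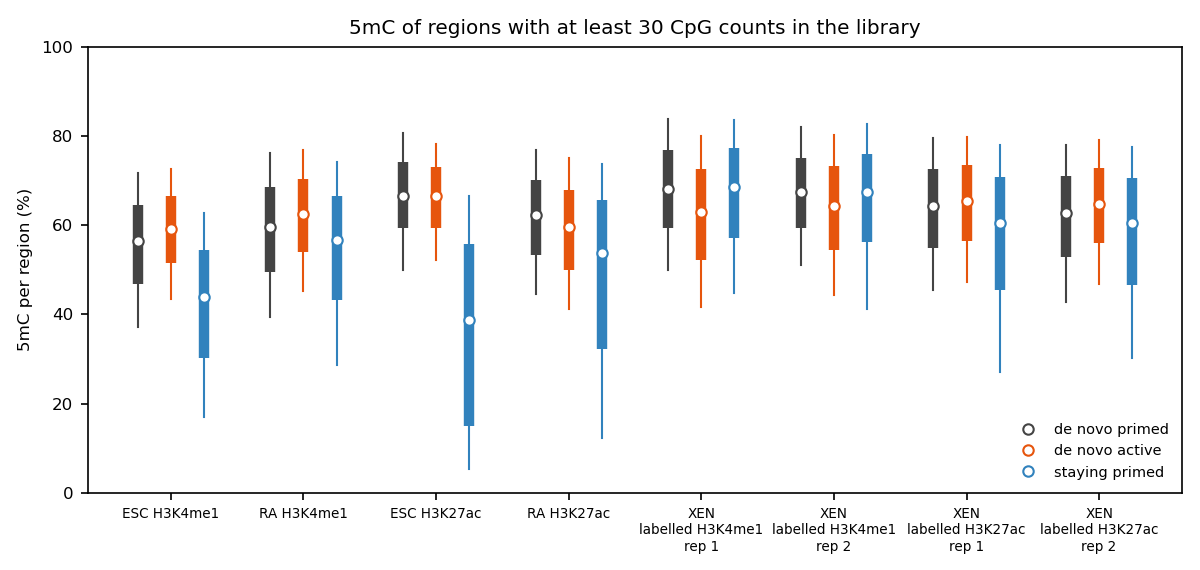
5mC per region (%) in each of the 8 libraries for de novo primed, de novo active and staying primed enhancers with at least 30 CpG counts; circles are medians, thick bars the quartiles and thin lines the 10th to 90th percentile. De novo primed enhancers had medians from 56.5% (ESC H3K4me1) to 68.2% (XEN labelled H3K4me1, replicate 1), while staying primed enhancers were lower than them in both ESC libraries.

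In XEN cells the same regions were at 62.4% (62.2 to 62.6; 196584 counts) and 62.3% (62.1 to 62.4; 293442 counts) in the libraries labelled H3K4me1, replicates 1 and 2. The libraries labelled H3K27ac gave 62.7% (62.6 to 62.8; 822648 counts) and 61.4% (61.3 to 61.4; 1316113 counts). All 4 XEN values were above those of the ESC and RA libraries. With ESC and RA bins also taken only from 4 counts upward, the ESC H3K4me1 library (54.8%), the RA H3K4me1 library (58.0%) and the RA H3K27ac library (59.1%) remained below them, and the ESC H3K27ac library (62.7%) did not. The mean of the libraries labelled H3K4me1 was 62.3% ± 0.0794 (SD, n = 2) and that of the libraries labelled H3K27ac was 62.0% ± 0.934 (SD, n = 2). The difference of 0.313 points did not exceed the spread between replicates (exact permutation test over the 4 libraries, 2-sided, p = 1; the smallest p this design allows is 0.333). The 2 XEN marks were further apart over all H3K4me1 peaks after RA, with means of 46.7% and 60.9%.

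5mC dipped at the middle of the regions against the bins 1 kb away, and the depth of this trough differed between the libraries. In the RA H3K4me1 library, pooled 5mC was 52.7% in the 200-bp bin at the peak centre and 66.4% in the bins 1 kb to either side, which is 13.7 points higher. In the ESC H3K4me1 library the centre was at 53.6% (53.2 to 53.9) and the sides were at 57.1% (56.8 to 57.4), 3.49 points higher. Farther out ESC 5mC was lower again, at 49.2% and 49.6% in the H3K4me1 library and 57.1% and 57.8% in the H3K27ac library at 2 kb to either side, which is below the centre values of 53.6% and 59.9%. In the RA and XEN libraries the centre was the lowest bin of the 4 kb around it. At the centre itself the ESC and RA H3K4me1 libraries thus differed by -0.863 points, while 1 kb away RA was 9.33 points above ESCs. The H3K27ac libraries showed the same order of depth, with a trough of 2.26 points in ESCs and 6.72 points after RA. There, however, RA was below ESCs at both places, by -5.85 points at the centre and -1.39 points 1 kb away. Taking only bins with at least 4 counts, as the XEN files do, the troughs were 3.31 and 13.8 points in the H3K4me1 libraries and 1.46 and 7.13 points in the H3K27ac libraries.

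The trough was also present in XEN cells, whose libraries had no part in the choice of regions or of their centres. Its depth was 9.63 and 8.92 points in the libraries labelled H3K4me1, and 13.6 and 13.6 points in those labelled H3K27ac. In the latter, the centre was at 56.9% and 55.8% and the sides were at 70.4% and 69.4%. The XEN troughs of de novo active enhancers were 11.8 and 11.9 points in the libraries labelled H3K4me1 and 10.2 and 10.8 points in those labelled H3K27ac. Those of enhancers that stayed primed were 7.84 and 5.56 points, and 3.00 and 3.88 points. The number of CpG sites in each bin, which also sets the counts, was not known here, and its part in these profiles was not tested.

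**Figure D2:**
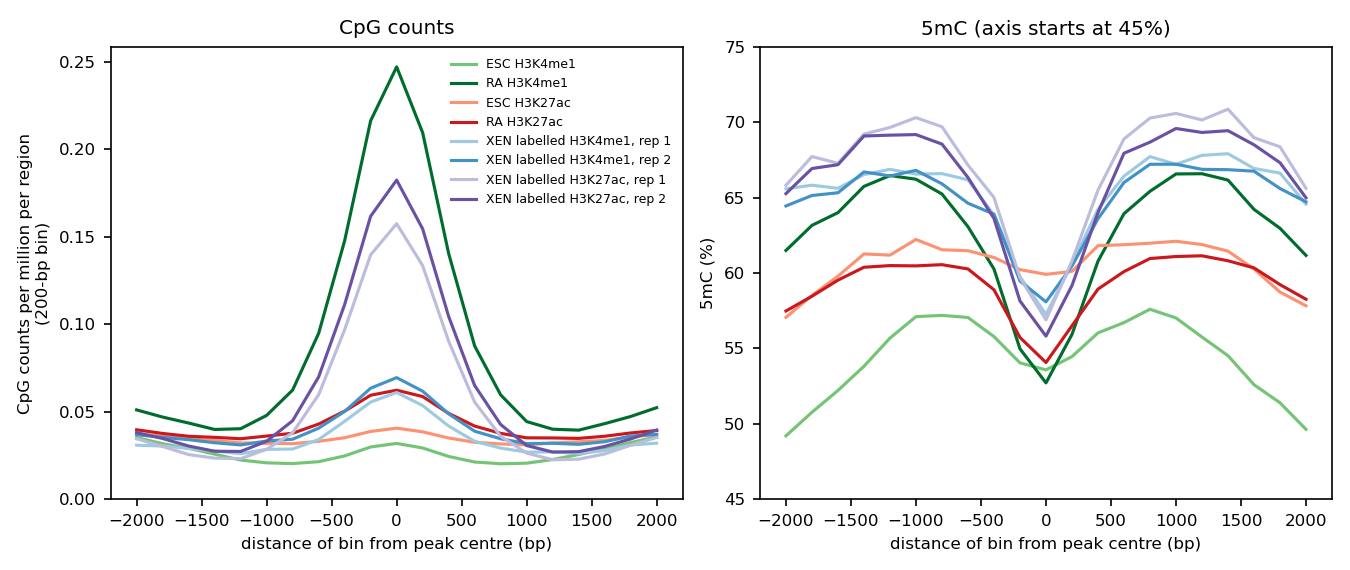
De novo primed enhancers by distance of a 200-bp bin from the peak centre (bp), with CpG counts per region (scaled to a common library total) on the left and pooled 5mC (%) on the right, 1 line per library. Counts at the centre were 5.36 times those 1 kb away in the RA H3K4me1 library, 5.75 and 5.73 times in the XEN libraries labelled H3K27ac, 2.20 and 2.14 times in those labelled H3K4me1, 1.75 times in the RA H3K27ac library and 1.54 and 1.29 times in the ESC H3K4me1 and H3K27ac libraries, and 5mC dipped there, by 13.7 points against 1 kb away in the RA H3K4me1 library and by 3.49 points in the ESC H3K4me1 library.

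XEN cells had enriched counts over the regions. Relative to peak-free bins 2 to 5 kb beyond the edges, counting in every library only bins with at least 4 counts, regions had 11.6 and 10.6 times the counts per bin in the XEN libraries labelled H3K27ac. In the libraries labelled H3K4me1 they had 2.50 and 2.38 times. For comparison, this ratio was 12.6 in the RA H3K4me1 library and 1.87 in the ESC H3K4me1 library, where the rule fixes the contrast, and it was 2.63 and 1.41 in the RA and ESC H3K27ac libraries. The 2 replicates of each label were close to each other and far from the other label. The enrichment was not particular to these regions. De novo active enhancers were at 21.03 and 17.3 in the XEN libraries labelled H3K27ac and at 5.51 and 4.61 in those labelled H3K4me1. Enhancers that stayed primed were at 15.2 and 12.6, and at 2.85 and 2.81. De novo primed enhancers thus had the lowest ratio of these groups in each XEN library, which was not tested over samples.

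**Figure D3:**
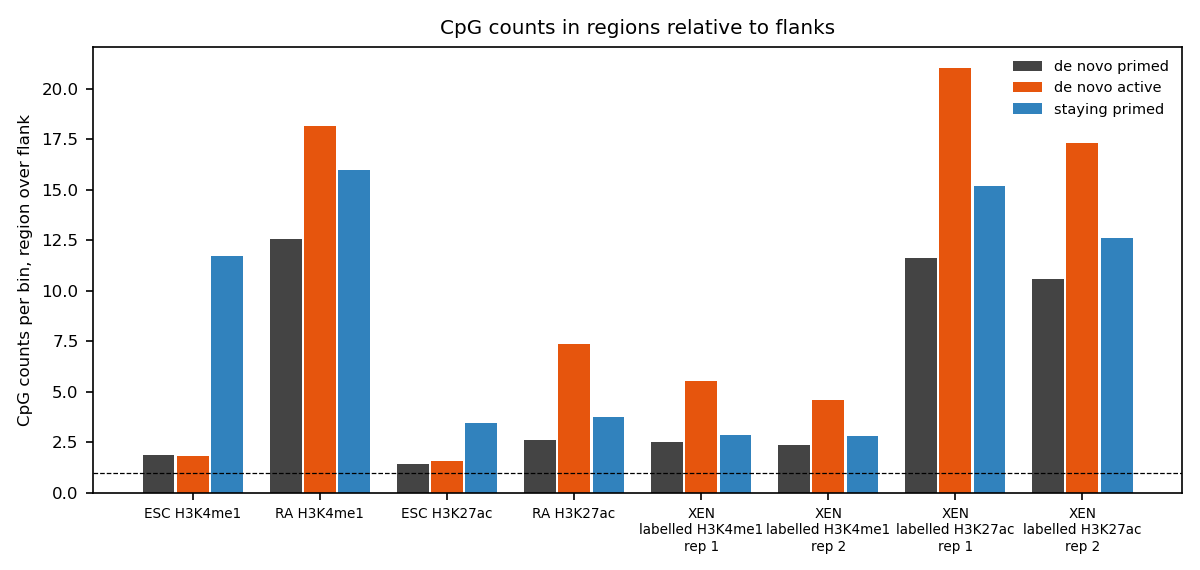
CpG counts per bin inside regions divided by counts per bin in peak-free flanks (2 to 5 kb from the edges, bins of at least 4 counts), for 3 groups of H3K4me1 peaks and 8 libraries; the dashed line marks 1. De novo primed enhancers were at 11.6 and 10.6 in the XEN libraries labelled H3K27ac and at 2.50 and 2.38 in those labelled H3K4me1. They had the lowest ratio of the 3 groups in each XEN library.

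The enrichment in XEN cells did not cover all regions. In the libraries labelled H3K27ac, 7300 regions had no listed bin in either replicate, 8410 had at least 30 counts in both, and 28462 lay between. The regions with at least 30 counts in both were stronger and longer peaks after RA, with a median score of 19.2 and a median length of 1544 bp against 10.0 and 1000 bp for those without a bin. They also had more counts in the ESC H3K4me1 library, with a median of 17 against 2, and the part of length and of such shared differences in counts was not tested. Their 5mC after RA was 58.6% and 58.2%. In ESCs it was 56.8% and 51.3%.

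Counts per region were compared between the XEN labels with edgeR's quasi-likelihood test, fitted to all H3K4me1 peaks after RA and adjusted by the Benjamini-Hochberg method. Of the 44172 regions, 19275 passed the filter on low counts. Among them 2151 (11.2%) had fewer counts in the libraries labelled H3K4me1 than in those labelled H3K27ac, against 12.6% of all peaks tested, and 169 (0.877%) had more, against 12.1%. The median log2 ratio was -0.57 for these regions and -0.14 over all peaks tested. A region could pass the filter through 1 label alone. Of the 44172 regions, 55.2% and 44.2% had no counts in the libraries labelled H3K4me1, against 32.9% and 19.8% in those labelled H3K27ac. Calls and median thus depend on the filter and on bins under 4 counts, which were not listed. Without the filter the median was -0.34, and -0.16 over all peaks. The calls also depend on single libraries. Without replicate 1 of the libraries labelled H3K27ac 31 regions were lower and 3 higher (980 and 5033 of all peaks), and without replicate 2 of them 39 were lower and 10 higher (1788 and 5324 of all peaks), whereas leaving out replicate 1 or 2 of the libraries labelled H3K4me1 gave 4541 and 6298 lower and 622 and 607 higher (25809 and 32150 lower and 18271 and 19079 higher of all peaks).

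With library totals in place of TMM scaling the median log2 ratio over all peaks was -0.84, and 4940 regions were lower and 68 higher, against 40488 and 7108 of all peaks tested. With TMM these were 14908 and 14361 of all peaks. The median of the regions minus that of all peaks was -0.43 with TMM, and it was -0.18 with no filter on low counts and -0.71 without replicate 2 of the libraries labelled H3K4me1.

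The 4 regions with the lowest ratio had no listed bin in either library labelled H3K4me1, and the 4 with the highest ratio had none in either library labelled H3K27ac. Each passed the filter on low counts through the other label alone, so their counts are a description and no p or fold is given, since bins under 4 counts were not listed. The lowest were chr7:144802390-144804543, with 139 and 153 counts in the libraries labelled H3K27ac, chr2:35501844-35502843 with 110 and 150, chr11:98418526-98420304 with 86 and 160, and chr11:118839545-118841086 with 88 and 137. Counts at the highest were smaller. At chr18:24444490-24445752 there were 16 and 20 counts in the libraries labelled H3K4me1, at chr8:60990657-60993853 15 and 20, at chr4:32087822-32089519 22 and 11, and at chr17:44947351-44949131 19 and 14.

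Peak score and 5mC were related differently before and after differentiation. Regions were split into 4 groups of rising score in the RA H3K4me1 list, with scores up to 9.15 in the lowest and of 19.4 or more in the highest group. In the RA H3K4me1 library, which gave the scores, 5mC was 60.7% in the lowest and 56.1% in the highest group, a difference of -4.63 points. In ESCs the same groups were at 54.7% and 55.6% in the H3K4me1 library (+0.88 points) and differed by +0.08 points in the H3K27ac library. In XEN cells, whose libraries gave no score, the highest minus the lowest group gave -1.69 and -2.22 points in the libraries labelled H3K4me1, and -3.15 and -3.25 points in those labelled H3K27ac. 5mC was thus lower in the highest-scoring group in each of the 4 XEN libraries, which was not tested over samples.

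**Figure D4:**
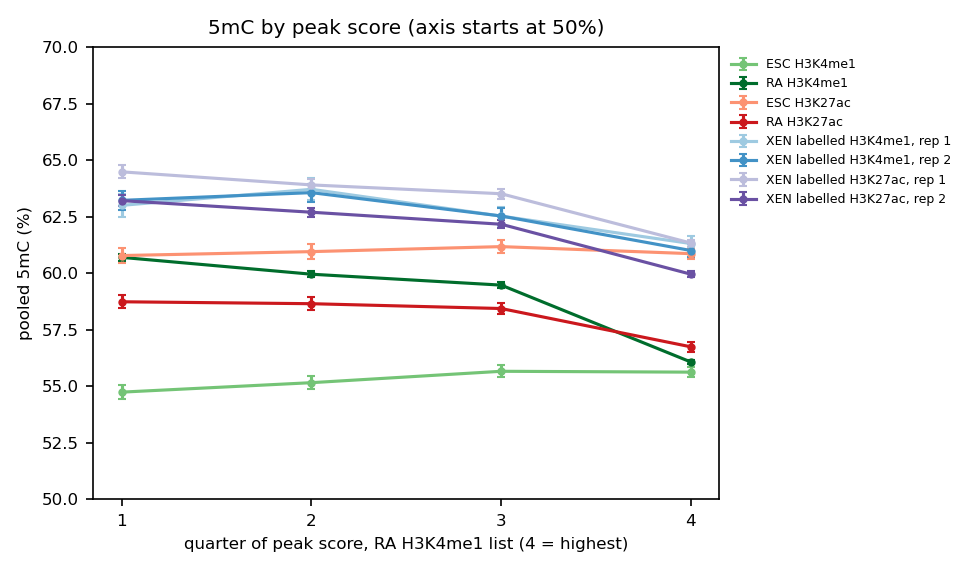
Pooled 5mC (%) of de novo primed enhancers in 4 groups of rising H3K4me1 peak score after RA (group 4 highest), 1 line per library, with 95% Clopper-Pearson intervals for counting error. The RA H3K4me1 library fell from 60.7% to 56.1% and the ESC H3K4me1 library was at 54.7% and 55.6% in the lowest and highest group.

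Count density in XEN cells moved with the score as well. In the libraries labelled H3K27ac the highest group had 1.80 and 1.77 times the counts per kb of the lowest. In the libraries labelled H3K4me1 the factors were 1.05 and 1.06. In the RA H3K27ac library it was 0.997, and in the ESC H3K4me1 library 0.785.

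The order of the regions by 5mC after RA recurred in the other libraries, although most classes were at other levels there. Regions with at least 30 counts after RA were grouped by their 5mC in the RA H3K4me1 library, and the remaining 12300 regions were left out. The 196 regions under 20% had 20.3% in the ESC H3K4me1 library (18.8 to 22.0) and 22.1% and 23.6% in the XEN libraries labelled H3K27ac. The 3172 regions from 20% to 40% had 39.0% in ESCs and 42.4% and 41.1% in these XEN libraries. The 12734 regions from 40% to 60% had 52.3% in ESCs, and 57.8% and 56.9% in XEN cells. The 14056 regions from 60% to 80% had 59.7%, and 69.0% and 68.1%. The 1714 regions at 80% or more had 65.2%, and 77.1% and 75.8%. The order of the 5 classes was therefore the same in ESCs and in XEN cells. The distance of the libraries labelled H3K27ac from ESCs was 11.9 and 10.7 points in the highest class and 1.82 and 3.24 points in the lowest. Those labelled H3K4me1 had 73.2% and 72.2% in the highest class, and 23.9% (318 counts) and 28.3% (417 counts) in the lowest. In replicate 2 of the latter the lowest class was thus no nearer to ESCs than the highest.

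Single regions were compared between the ESC and RA H3K4me1 libraries with Fisher's exact test on methylated and unmethylated counts, with the Benjamini-Hochberg adjustment over all 95817 peaks with at least 30 counts in both. This test compares 2 libraries, not the cell states, and the libraries are those whose peaks chose the regions. Only 4898 of the 44172 regions (11.1%) had the counts. Of these, 712 (14.5%) were higher after RA, against 57.1% of all peaks tested, and 127 (2.59%) were lower, against 1.37%. The median difference was 6.51 points, against 14.2 points over all peaks tested.

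5mC after RA followed the order of the classes in ESCs, and the outer classes were closer to the middle. The 76 regions under 20% in ESCs had a median of 13.7% there and 28.7% after RA, and 18 of them remained under 20%. The 557 regions from 20% to 40% went from a median of 34.2% to 49.6%. The 2311 regions from 40% to 60% went from 51.6% to 61.2%. The 1852 regions from 60% to 80% had 66.1% and 67.3%, with 922 above and 925 below their ESC value. The 102 regions at 80% or more went from 82.4% to 70.4%, and 96 of them were lower after RA. Because the classes were set by the ESC counts, counting error places some regions in the outer classes, and the shift toward the middle that this alone gives was not tested. In the RA H3K27ac library, which shares no counts with either, the same 5 classes (here all 4953 regions with at least 30 ESC counts) were at 20.99%, 48.7%, 59.3%, 64.6% and 70.4%.

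**Figure D5:**
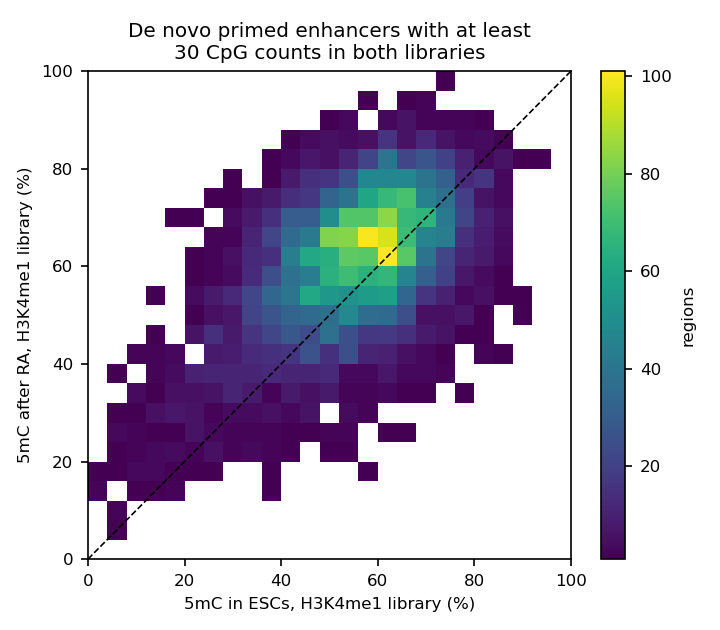
5mC (%) in the ESC H3K4me1 library against 5mC (%) in the RA H3K4me1 library for the 4898 de novo primed enhancers with at least 30 CpG counts in both; colour gives the number of regions per 4 by 4 point square and the dashed line marks equal values. Most regions lay between 40% and 80% on both axes, and 72 of the 76 regions under 20% in ESCs lay above the line.

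The largest rises were found at 4 regions that are named by their mm9 position, since genes and sequence of this build were not analysed here. At chr7:122366539-122367831, 5mC rose from 16.7% (36 counts) in ESCs to 71.3% (122 counts) after RA (adjusted p = 2.54e-08, Fisher's exact test). The H3K27ac libraries had 47.8% (23 counts) and 44.4% (18 counts) there. At chr1:155399170-155401632 it rose from 23.3% (30 counts) to 69.2% (104 counts; adjusted p = 4.07e-05, same test), and the H3K27ac libraries had 40% (10 counts) in ESCs and 28.6% (14 counts) after RA. At chr3:132694565-132698425 it rose from 45.8% (48 counts) to 87.0% (115 counts; adjusted p = 6.95e-07, same test), and the H3K27ac libraries had 64.3% (28 counts) and 68.6% (51 counts). At chr9:41186739-41188507 it rose from 29.4% (34 counts) to 70% (120 counts; adjusted p = 0.000123, same test), and the H3K27ac libraries had 66.7% (6 counts) and 66.7% (30 counts). The H3K27ac libraries thus did not rise by a like amount at any of the 4, on few counts. In the XEN libraries labelled H3K27ac, the chr7 region had no listed bin and 25% (4 counts), the chr1 region 74.1% (27 counts) and 50% (50 counts), the chr3 region 100% (4 counts) and 53.6% (28 counts), and the chr9 region 56.7% (30 counts) and 54.0% (50 counts). In those labelled H3K4me1 they had, in the same order, 25% and 25% (4 counts each), 50% (14 counts) and 62.5% (8 counts), 61.5% (13 counts) and 84.2% (19 counts), and 62.5% (8 counts) and 55% (20 counts).

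The regions with the largest falls were also read in the other libraries. At chr15:86871527-86873538, 5mC fell from 76.9% (52 counts) in ESCs to 35.8% (232 counts) after RA (adjusted p = 2.95e-07, Fisher's exact test). The H3K27ac libraries went from 83.3% (36 counts) to 47.6% (21 counts), and the XEN libraries labelled H3K27ac were at 38.5% (26 counts) and 41.9% (62 counts). At chr9:71991448-71992964 it fell from 80% (35 counts) to 41.1% (124 counts; adjusted p = 0.000138, same test), with 56.5% and 53.2% in the XEN libraries labelled H3K27ac. At chr6:88118606-88120684 it fell from 56.6% (53 counts) to 18.8% (192 counts; adjusted p = 1.24e-06, same test), with 37.3% (83 counts) and 33.0% (100 counts) in those libraries. At chr4:76943563-76946338 it fell from 64.9% (37 counts) to 27.5% (142 counts; adjusted p = 0.000118, same test), with 41.4% (29 counts) and 37.7% (61 counts) there. In each of these 4 regions both XEN libraries labelled H3K27ac lay between the ESC and the RA value. The libraries labelled H3K4me1 had fewer counts there, with 37.5% (16 counts) and 73.3% (15 counts) at the chr15 region, 75% (4 counts) and 66.7% (9 counts) at the chr9 region, 11.1% (9 counts) and 40% (5 counts) at the chr6 region, and no listed bin at the chr4 region.

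The 4 highest-scoring regions had between 38.8% and 57.4% 5mC after RA. The region chr16:56491321-56502675, 11355 bp long, had 59.6% (52 counts) in the ESC and 56.6% (518 counts) in the RA H3K4me1 library, with 50.0% and 55.8% in the XEN libraries labelled H3K27ac. The region chr18:61486124-61492327, with a score of 160.7, had 62.9% (151 counts) and 57.4% (1002 counts). It had 797 and 1171 counts in the XEN libraries labelled H3K27ac, at 70.3% and 69.7% 5mC, and 92 and 101 counts in those labelled H3K4me1. At chr7:93618582-93624330, with a score of 131.5, there were 14 counts in ESCs (28.6%) and 276 after RA (38.8%). At chr5:67593900-67598271, with a score of 128.2, 5mC was 67.3% (162 counts) in ESCs and 55.2% (1107 counts) after RA (adjusted p = 0.00806, Fisher's exact test). The RA H3K27ac library had 67.9% (109 counts) at that region.

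Among the widest regions, 2 had higher 5mC after RA in the H3K4me1 libraries. The region chr10:102603494-102611416 (7923 bp) went from 28.8% (80 counts) to 53.1% (354 counts; adjusted p = 0.000295, Fisher's exact test), with 29.6% (27 counts) and 40.6% (64 counts) in the ESC and RA H3K27ac libraries, and it had 4 and 23 counts in the XEN libraries labelled H3K27ac. The region chr6:15132772-15140233 (7462 bp) went from 44.2% (95 counts) to 67.4% (521 counts; adjusted p = 7.74e-05, Fisher's exact test), while the H3K27ac libraries had 55.4% (56 counts) in ESCs and 47.7% (86 counts) after RA. The region chrX:165250786-165258954 (8169 bp) had 11 counts in ESCs, too few for the test, and 56.9% (332 counts) after RA, with 68.8% and 69.5% in the XEN libraries labelled H3K27ac.

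The H3K4me1 and H3K27ac libraries of RA-differentiated cells were compared in the 3701 regions with at least 30 counts in both. With the same test, 149 (4.03%) were higher in the H3K4me1 library, against 30.2% of all peaks tested, and 38 (1.03%) were lower, against 0.767%. The median difference was 2.69 points, and 6.36 points over all peaks tested. By the rule none of these regions has an H3K27ac peak, whereas 51.4% of the whole list overlap one after RA.

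XEN cells were compared with the RA H3K4me1 library region by region, and a region was called only where both XEN replicates passed in the same direction. With the libraries labelled H3K4me1, 445 regions had at least 30 counts in all 3 libraries. Of these 7 (1.57%) were higher in XEN cells, against 6.60% of all peaks tested, and 5 (1.12%) were lower, against 19.9%. With the libraries labelled H3K27ac, a comparison added after the files were seen, 8274 regions could be tested. Here 156 (1.89%) were higher in XEN cells, against 18.0% of all peaks tested, and 17 (0.205%) were lower, against 0.311%. The median difference was 3.24 points, against 6.25 points over all peaks tested. These comparisons and the one with ESCs share the RA H3K4me1 library, so any error in it enters all of them.

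Among the 7 higher regions, the 4 with the largest difference from the libraries labelled H3K4me1 were led by chr6:86686399-86688174, which had 43.9% (171 counts) after RA, 72.7% (55 counts) and 70% (50 counts) in those libraries and 68.2% and 65.9% in the libraries labelled H3K27ac. In ESCs it had 44.8% (67 counts). At chr14:103850267-103851266 the RA value was 53.1% (49 counts) and the XEN values were 83.8% and 75.4%, and 78.9% and 79.6%. At chr3:145567582-145569087 it was 39.6% (212 counts) against 66.2% and 65.3%, and 57.3% and 61.8%, with 37.3% (75 counts) in ESCs. At chr16:34043897-34045420 it was 67.6% (111 counts) against 90.3% and 93.9%, and 82.4% and 79.8%. The RA H3K27ac library had, in the same order, 68.8% (32 counts), 68.8% (16 counts), 40.4% (47 counts) and 80% (20 counts). The regions were chosen for high values in the libraries labelled H3K4me1 against the RA H3K4me1 library. The libraries labelled H3K27ac also lay above the RA H3K4me1 library in these 4 regions, but its low value entered the choice.

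Among the 5 lower regions, chr11:113121020-113122019 had 76.2% (63 counts) after RA, 30.2% (106 counts) and 30% (80 counts) in the XEN libraries labelled H3K4me1, and 55.6% (198 counts) and 42.7% (218 counts) in those labelled H3K27ac. The RA H3K27ac library had 36% (25 counts) there. At chr12:5813643-5817076 the RA value was 58.2% (306 counts) and the XEN values were 24.0% and 26.7%, and 47.9% and 45.0%. At chr19:8592635-8593634 it was 56.1% (123 counts) against 24.1% and 36.1%, with 65.6% and 60.9% in the libraries labelled H3K27ac. At chr6:99945713-99947795 it was 50.2% (215 counts) against 23.5% and 30%, with 58.1% and 51.9%. The RA H3K27ac library had 39.6% (48 counts), 37.5% (48 counts) and 34.3% (35 counts) at these last 3 regions. The regions were chosen for low values in the libraries labelled H3K4me1. At the last 2 of them the libraries labelled H3K27ac lay above the RA H3K4me1 library.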

How the data were processed

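ChIP-BS-seq libraries of H3K4me1 and H3K27ac were used, 8 in all. Alignment by the authors used Bismark and Bowtie, and peak calling used HOMER, on mm9, as the methods and the submitters' processing notes state, and versions are not given in the sources used here. The deposited values are unscaled counts, methylated and unmethylated, for each 200-bp bin, and the authors' peak lists carry a peak score. The methylated column was taken as the one rare on the mitochondrial genome, and the XEN files have it in the other position. Whether an ESC or RA file pools repeats was not established. Nothing says that the XEN replicates came from separate cultures, so their spread may be technical. The whole-cell extract and H3K36me samples and the single-cell expression files were not used here.

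Regions, groups and lists were chosen with earlier results of these data known. Counts were summed over the bins touching a region by 1 bp or more, and 5mC is methylated over all counts. Fisher's exact test (numba 0.67.0) needed 30 counts per library and was adjusted over all peaks tested, with calls at an adjusted p under 0.05. XEN counts were tested with edgeR 4.0.16 (R 4.3.3; TMM, filterByExpr) and DESeq2 1.42.0. XEN replicate numbers did not pair the libraries (correlation of deviations over 118605 peaks 0.000512 for equal numbers and -0.000512 for unequal ones). On simulated data the Fisher step found 190 of 200 regions changed by 40 points among 95817 with 5 false calls, and for XEN replicate 1 it found 189 of 200 among 45362 with 3 false calls. The edgeR step found 150 of 200 4-fold changes among 118605 with 8 false calls. Named regions were the 4 largest rises and falls from ESCs to RA called with at least 100 RA and 30 ESC counts, the 4 highest scores, the 4 widest, the 4 largest XEN differences called in each direction, and the 4 highest and lowest called XEN count ratios. Alternatives covered coverage minimum, bins, overlap rule, score, scaling, tool, replicate block and left-out libraries.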

Additional observations from a re-analysis of the deposited data

How the results depend on the processing

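Depth left 11.1% of the regions testable between ESCs and RA. Shares over all peaks at the settings below are not given here, so these counts do not set the regions against the list. With a coverage minimum of 20, 970 regions were higher and 195 lower after RA, of 8871 tested. In H3K4me1 against H3K27ac 278 were higher and 81 lower, of 9813. In XEN cells (labelled H3K4me1) 10 were higher and 8 lower, of 1364, and with the libraries labelled H3K27ac 150 and 25, of 12272. The shares higher were 10.9%, 2.83%, 0.733% and 1.22%, each below that at 30 counts. At 60 the counts were 218 and 37, 15 and 4, 2 and 1, and 111 and 7, of 896, 210, 36 and 2987 regions tested. The share higher was then 24.3% after RA and 3.72% in the XEN libraries labelled H3K27ac, against 14.5% and 1.89% at 30 counts. With scores at or above the list median the counts were 203 and 76, 66 and 23, 4 and 2, and 87 and 5, of 1562, 1914, 242 and 3572 tested. With bins wholly inside, 94 regions of 2416 tested were higher in H3K4me1 than H3K27ac, and of 329 tested 3 were higher and 3 lower in XEN cells. With bins of at least 4 counts 99 of 1894 were higher in H3K4me1 than H3K27ac. With a difference over 20 points 90 were higher in XEN libraries labelled H3K27ac. Requiring only 1 XEN replicate gave 39 to 68 higher and 18 to 51 lower (labelled H3K4me1), and 506 to 608 higher and 87 to 213 lower (labelled H3K27ac), where neither the agreement nor the 30 counts of the other replicate were needed any longer.

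For XEN counts, DESeq2 called 433 higher and 2502 lower (18211 and 18746 over all peaks), library totals 68 and 4940 (7108 and 40488), and no filter 111 and 1522 (11971 and 13701). Leaving out 1 library gave 3 to 622 higher and 31 to 6298 lower, with the lone library assumed to vary like the others. The replicate block, with 2 pairs that share only a number, gave 32 higher and 544 lower (11222 and 8464 over all peaks). The cause of these smaller counts was not tested. The XEN 5mC difference of 0.313 points was the same with the replicate block and ranged from -0.348 to 0.973 when 1 library was left out, reversing to -0.348 without replicate 2 of those labelled H3K27ac.

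Pooled 5mC moved with the bins used. With bins of at least 30 counts it was 46.7% in ESCs, 53.5% after RA and 60.9% in XEN libraries labelled H3K4me1, with bins wholly inside 54.9%, 57.2% and 61.4%, and with no other peak within 1000 bp 54.5%, 57.4% and 61.2%. The libraries labelled H3K27ac stayed between 61.2% and 62.5%. RA remained above ESCs in each. Among named 5mC calls, with bins wholly inside chr19:8592635-8593634 lost its call, and those at chr7:122366539-122367831, chr1:155399170-155401632, chr9:41186739-41188507, chr14:103850267-103851266 and chr16:34043897-34045420 could not be repeated.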

Other observations

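De novo primed enhancers took a larger share of the H3K4me1 peaks on the X chromosome, of which this male line has a single copy. On X, 1966 of 4655 peaks (42.2%) met the definition, against 27.3% on the autosomes, where the share per chromosome lay between 21.01% (chromosome 11) and 31.8% (chromosome 3). Fewer X peaks overlapped each of the other lists, with 40.6% against 51.7% for H3K27ac after RA, 43.4% against 57.4% for ESC H3K4me1 and 26.3% against 39.7% for ESC H3K27ac. The regions on X also had fewer counts per kb, scaled to 1000000 counts per library, with 0.667 against 0.919 in the RA H3K4me1 library and 0.0882 against 0.148 in the ESC H3K4me1 library. Their pooled 5mC was 51.03% against 55.5% in ESCs and 55.6% against 58.3% after RA in the H3K4me1 libraries. In XEN cells it was 62.6% against 62.7% and 61.3% against 61.4% in the libraries labelled H3K27ac, whereas in those labelled H3K4me1 it was higher on X, at 65.9% against 62.3% and 63.2% against 62.3%. The part of copy number in these values was not tested.

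The longest run of neighbouring de novo primed enhancers, 12 within 34375 bp, was also on X, at chrX:49759532-49793906 (mm9). It was looked up after the runs had been counted. Its 5mC was 58.1% (86 counts) in the ESC and 72.0% (724 counts) in the RA H3K4me1 library, and 79.0% (338 counts) and 76.4% (720 counts) in the XEN libraries labelled H3K27ac. Runs of 6 lay at chr1:170171001-170197288, with 64.6% in ESCs and 63.3% after RA, and at chr15:25934259-25955053, with 54.9% and 65.5%.

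Of the 196 regions under 20% 5mC after RA, 15 rested on at least 100 counts. Pooled, they had 15.8% in the RA H3K4me1 library, by which they were chosen. The ESC H3K4me1 library had 27.3% and the RA H3K27ac library 16.4%. The XEN libraries labelled H3K27ac had 23.2% and 23.1%, and those labelled H3K4me1 14.5% (55 counts) and 15.7% (83 counts). These 15 regions had a median score of 36.5.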
